A study of Homo sapiens with 33 samples.

Results

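The genes that detect viral or misplaced DNA and RNA inside cells, and the 2 adaptors that relay their signals, were followed through treatment with EED226 of a lymphoma line. The set held the RNA sensors IFIH1, RIGI, DHX58 and TLR3 with the adaptor MAVS, the DNA sensors CGAS, IFI16 and AIM2 with the adaptor STING1, and ZBP1. They were chosen by name, with no rule on their values, but with earlier results of these data known. Every probe set that the platform annotation gives to 1 of these symbols was taken. This gave 10 of the 19775 genes on the array and 25 of its 54675 probe sets. The brightest probe set of a gene, by its mean over all arrays, stands for the gene unless another is named.

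Karpas422 is an established human diffuse large B cell lymphoma line, described in the series title as EZH2 mutant. All cells of the study were of this 1 line. EED226 is an allosteric inhibitor that binds the EED subunit of PRC2, the Polycomb complex that methylates lysine 27 of histone H3, a repressive mark. There were 11 groups of 3 arrays: cells at 0 h, whose treatment is not given in the sources used here, and cells kept with the solvent DMSO or with 5 µM EED226 for 8 h, 1 day, 2 days, 3 days or 6 days. The replicates are called biological triplicates in the design text. That text speaks of an EZH2 inhibitor and the treatment protocol also lists the compound EI1, while the titles of the treated samples name EED226, and the groups follow the titles.

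RIGI, IFIH1 (also called MDA5) and DHX58 (LGP2) are related helicases that bind double-stranded RNA in the cytosol. RIGI and IFIH1 signal through MAVS on mitochondria to the kinases TBK1 and IKBKE and the factors IRF3 and IRF7, which switch on type I interferon. CGAS detects DNA and makes a cyclic dinucleotide that activates STING1 and the same kinases. IFI16 and AIM2 are related DNA binding proteins of the HIN-200 family, and AIM2 assembles an inflammasome that activates CASP1. ZBP1 binds Z-form nucleic acid and can start cell death through RIPK3 and CASP8. TLR3 is not cytosolic: it detects double-stranded RNA in endosomes. Secreted interferon raises the transcription of many of these genes again through the factor ISGF3, which binds the interferon-stimulated response element.

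Since several members moved together, their promoters were searched for that element, spelled here as GAAA, any 2 bases and GAAA, on both strands, in RefSeq windows of GRCh38.p14 from 250 bases before to 50 after the start of a gene. The table used held windows for 6 of the 10 members: IFIH1, RIGI, TLR3, MAVS, IFI16 and AIM2. DHX58, CGAS, ZBP1 and STING1 were not analysed here. The pattern occurred in 3 of the 6 members and in 3.57% of all 35116 windows. These figures differ in unit, since a member counted if any of its windows matched and IFI16 had more than 1 window. IFIH1 held 3 matches, 2 of which overlap, and AIM2 and TLR3 held 1 each. The stretches with the matches are shown in the direction of the gene, with the matches in capitals.
IFIH1, chr2:162318685-162318863, minus strand: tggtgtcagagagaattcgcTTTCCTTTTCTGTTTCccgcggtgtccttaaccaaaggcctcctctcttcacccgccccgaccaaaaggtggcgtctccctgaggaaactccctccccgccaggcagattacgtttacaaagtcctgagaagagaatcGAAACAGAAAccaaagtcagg
AIM2, chr1:159076927-159076976, minus strand: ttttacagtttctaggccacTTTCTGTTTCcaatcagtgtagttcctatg
TLR3, chr4:186069132-186069161, plus strand: cattttttttcaagctttacTTTCACTTTC
The IFIH1 stretch ends 1 base before the start, and the match in TLR3 crosses the start. No match was found in the windows of RIGI, MAVS or IFI16. The other interferon-related pattern searched, TTCNNNGAA, occurred in 7.66% of windows and, among the 6 members, in TLR3. A match describes the letters only.

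Within groups, arrays had r of at least 0.994 with each other over all probe sets. The exception was DMSO day 6 replicate 3, with 0.986 and 0.987 to its group mates, so day 6 results of the sensors and adaptors are given with and without it, and those of other genes named where it changed a call or moved a called value over 1.5 times. The median log2 value of an array was 4.06 to 4.18. The DMSO means of IFIH1, AIM2 and ZBP1 lay below the lowest of these medians, where sizes of change are uncertain. All 6 measured B cell markers lay above the highest array median in every group, with a summed log2 level at day 6 of 57.6 to 59.9 with DMSO and 61.0 to 62.1 with EED226. At day 6, 3 of the 6 were called higher and 0 lower, against 23.1% and 25.5% of all genes. BLK was called lower only without DMSO day 6 replicate 3 (-0.34). Of 4 plasma cell markers 4 did so with DMSO and 3 with EED226 at day 6, with sums of 24.4 to 24.9 and 22.7 to 23.0. The mean of SDC1 went down from 7.54 to 5.83 and that of IRF4 from 4.4 to 3.9. PRDM1 went up from 5.04 to 5.49, and XBP1 had means of 7.64 and 7.57. Of 7 monocyte, macrophage and dendritic cell markers, 0 or 1 lay above the highest array median, and their summed log2 level was 23.7 to 24.6 with DMSO and 23.96 to 25.2 with EED226 at day 6. Of 6 T and NK cell markers 3 did so in every group, with sums of 26.7 to 28.0 and 25.3 to 26.6. Of 5 fibroblast and epithelial markers 2 or 3 did so, with sums of 20.9 to 23.4 and 19.7 to 20.4. Of these 5, only COL1A1 was called at day 6, lower by 0.80, or by 0.43 without DMSO day 6 replicate 3. The part of all these markers in the results was not tested. RNA comes from all cells of a culture, so fewer cells with a transcript and less RNA per cell cannot be told apart.

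EED226 did not move any sensor past the test at 8 h, and 6 of the 10 genes had risen by day 3. With limma, 0 of the 25 probe sets passed at 8 h, where 0 of all 54613 tested passed and 0 of the 25 had an unadjusted p under 0.05. Differences at 8 h lay between -0.39 for MAVS 231829_at and 0.22 for IFIH1 on the log2 scale. At day 1, 0 of the 25 probe sets passed, against 0.231% of all probe sets higher and 0.00549% lower (0.496% and 0.0101% of all genes), and 6 of the 25 had an unadjusted p under 0.05. At day 2, 11 probe sets were higher and the other 14 did not pass, against 3.58% of all probe sets higher and 0.989% lower. As genes, 5 of 10 rose and the other 5 did not pass, against 5.72% of all genes higher and 1.47% lower. At day 3, 6 genes rose and 2 fell, against 10.6% and 9.59% of all genes, and 13 of 25 probe sets were higher and 4 lower, against 7.32% and 7.13%. At day 6, 6 genes rose and 2 fell, against 23.1% and 25.5%, and 16 probe sets were higher and 4 lower, against 20.2% and 20.6%. The median difference over the 10 genes was 0.20, 0.67, 1.75 and 1.73 at days 1, 2, 3 and 6, beside -0.01, -0.03, -0.02 and -0.11 over all genes.

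**Figure D1:**
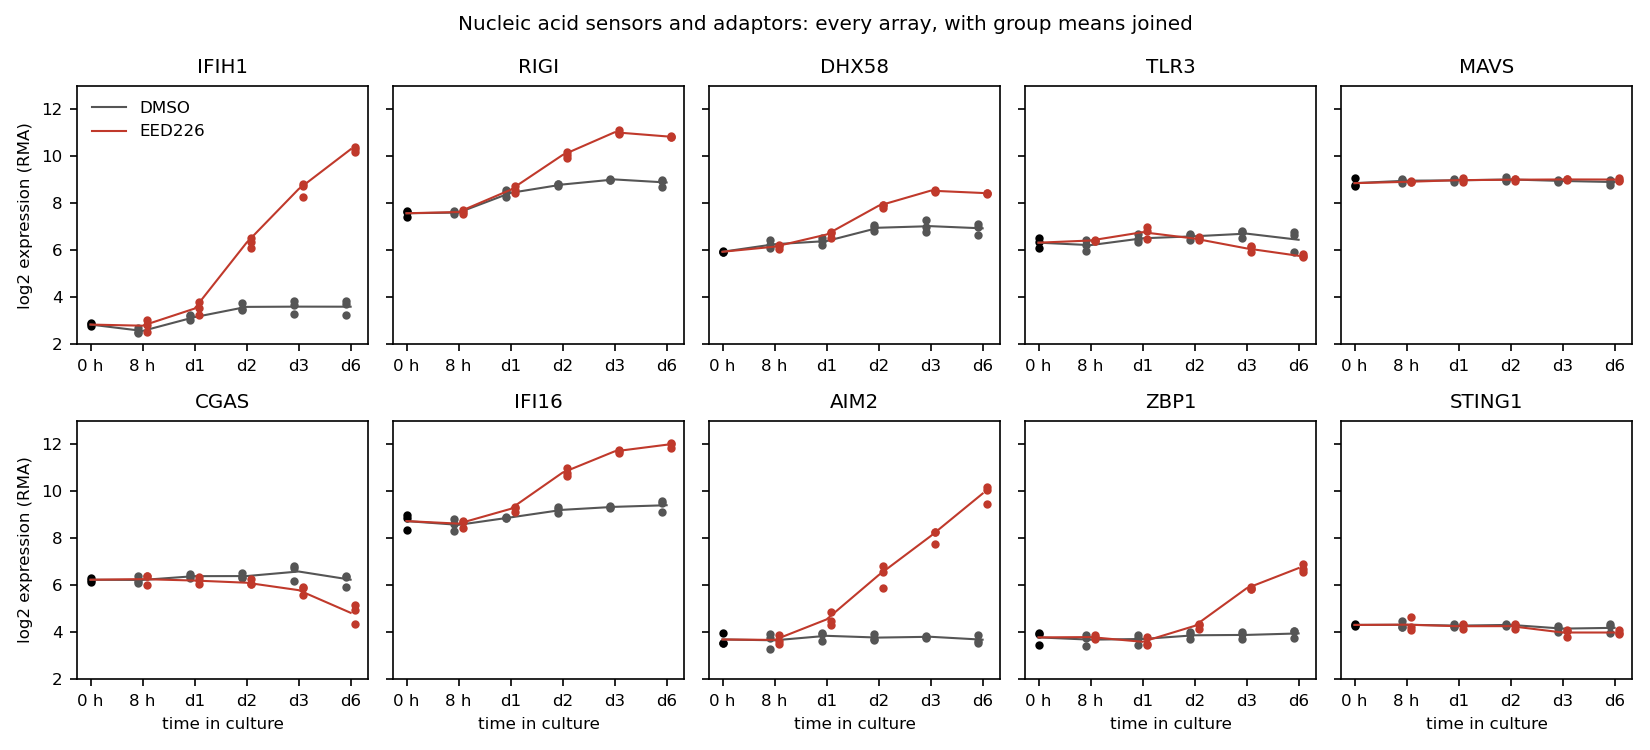
Log2 expression (RMA) of the brightest probe set of each of the 10 genes, on every array, by time in culture, with DMSO in grey, EED226 in red and lines through the group means; the 6 times are evenly spaced, not to scale. With EED226, IFIH1 and AIM2 climbed to means of 10.30 and 9.90 at day 6, RIGI and DHX58 reached their highest means at day 3 on these probe sets, CGAS and TLR3 went down to 4.82 and 5.77, and MAVS and STING1 kept their 3 arrays close to those of DMSO.

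IFIH1, the sensor of long double-stranded RNA, had the largest change of the 10 genes on their brightest probe sets. Its values at 0 h were 2.90, 2.76 and 2.85 on the log2 scale. With DMSO they were 3.78, 3.52 and 3.48 at day 2, 3.67, 3.86 and 3.27 at day 3, and 3.82, 3.71 and 3.26 at day 6. With EED226 they were 6.09, 6.53 and 6.36 at day 2, 8.73, 8.27 and 8.82 at day 3, and 10.42, 10.17 and 10.32 at day 6. From day 2 the 2 treatments did not overlap, and the EED226 arrays of each later day lay above those of the day before. At day 1 the difference was 0.36 ± 0.17 (SE, n = 3), the arrays overlapped and the gene did not pass (adjusted p = 0.854). IFIH1 was then 6.66-fold higher at day 2 (adjusted p = 1.15e-11), 32.2-fold at day 3 (8.32e-18) and 104-fold at day 6 (1.46e-21), the last being a log2 difference of 6.70 ± 0.17. Without DMSO day 6 replicate 3 the day 6 difference was 6.54. The 2 dimmer probe sets of the gene also rose, 1555464_at by 3.17 ± 0.16 and 216020_at by 2.44 ± 0.20 at day 6 (3.14 and 2.46 without that array). At day 2 216020_at did not pass (adjusted p = 0.759), and 1555464_at lost its call without DMSO replicate 2 or EED226 replicate 1 or 2 (adjusted p 0.0516 to 0.0739).

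RIGI, which detects RNA ends bearing a triphosphate, rose by less than IFIH1. On its brightest probe set the values with DMSO were 8.82, 8.76 and 8.84 at day 2, 8.99, 9.06 and 9.01 at day 3, and 8.96, 9.02 and 8.69 at day 6. With EED226 they were 9.91, 10.07 and 10.20, then 10.99, 10.96 and 11.14, and then 10.88, 10.84 and 10.83. All EED226 arrays from day 2 lay above all DMSO arrays. RIGI was 2.39-fold higher at day 2, 4.03-fold at day 3 and 3.90-fold at day 6 (adjusted p = 6.52e-10, 6.33e-15 and 1.04e-15). Both other probe sets passed on the same 3 days and were higher at day 6 by 2.25 ± 0.14 and 2.66 ± 0.11 (SE, n = 3), or 2.11 and 2.61 without DMSO day 6 replicate 3. The brightest probe set had its highest EED226 mean at day 3, while 242961_x_at went from 9.90 at day 3 to 10.09 at day 6 and 222793_at from 9.63 to 9.88.

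DHX58, which lacks the signalling domain of its relatives and modulates them, also rose from day 2 and had its highest EED226 mean at day 3. It has 1 probe set, with values of 7.07, 6.84 and 6.99 with DMSO and 7.94, 7.93 and 7.82 with EED226 at day 2. At day 3 they were 7.01, 6.78 and 7.30 against 8.54, 8.50 and 8.59, and at day 6 they ran from 6.67 to 7.14 against 8.46, 8.42 and 8.45. DMSO day 6 replicate 3 was the lowest of its group here, as it was for RIGI and IFIH1. The log2 differences were 0.94, 1.51 and 1.51 ± 0.12 (SE, n = 3; adjusted p = 3.25e-06, 1.21e-10 and 1.25e-11). The day 6 difference without that array was 1.37, and for RIGI 1.87.

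AIM2, the DNA sensor of the inflammasome, rose with EED226 by a log2 difference second to that of IFIH1 among the 10 brightest probe sets. The dimmer IFIH1 probe sets rose by less than AIM2. Its DMSO values were 3.92, 3.96 and 3.64 at day 1 and 3.61, 3.90 and 3.53 at day 6. With EED226 they were 4.86, 4.46 and 4.31 at day 1, 6.58, 6.81 and 5.89 at day 2, 8.26, 8.26 and 7.74 at day 3, and 10.18, 10.06 and 9.47 at day 6. The EED226 arrays lay above the DMSO arrays already at day 1, with a difference of 0.70 ± 0.21 (SE, n = 3) that did not pass (adjusted p = 0.268). The gene was 6.31-fold higher at day 2, 19.5-fold at day 3 and 74.8-fold at day 6 (adjusted p = 1.03e-09, 9.87e-15 and 5.30e-19). Without DMSO day 6 replicate 3 the day 6 log2 difference was 6.15, beside 6.22 ± 0.21 with it.

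IFI16, its relative that binds DNA in the nucleus and cytosol, rose on all 3 of its probe sets. DMSO values were 9.32, 9.25 and 9.06 at day 2, 9.34, 9.39 and 9.29 at day 3, and 9.60, 9.48 and 9.13 at day 6. EED226 values were 10.64, 10.97 and 10.77, then 11.76, 11.63 and 11.71, and then 12.02, 12.07 and 11.85. No EED226 array of these days overlapped DMSO. At day 1 the EED226 arrays, 9.28, 9.12 and 9.35, already lay above 8.86, 8.88 and 8.92 with DMSO, without passing. The log2 differences were 1.59, 2.36 and 2.58 ± 0.14 (SE, n = 3; adjusted p = 9.44e-09, 5.57e-13 and 9.40e-15), and the last was 2.44 without DMSO day 6 replicate 3. The other 2 probe sets gave 2.63 ± 0.17 and 3.10 ± 0.41 at day 6, and 2.46 and 2.58 without that array. The second of these, 208965_s_at, spread most between replicates and lost its day 2 call without DMSO replicate 3 or EED226 replicate 1 (adjusted p = 0.0513 and 0.0539).

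ZBP1, the Z-nucleic acid sensor, rose on both probe sets, the brighter of which first passed at day 3. On 208087_s_at the values were 3.70, 3.90 and 3.99 with DMSO and 4.32, 4.35 and 4.13 with EED226 at day 2, a difference of 0.40 ± 0.14 (SE, n = 3) that did not pass (adjusted p = 0.121). They were 3.72, 3.99 and 3.93 against 5.92, 5.85 and 5.83 at day 3, and 4.05, 4.05 and 3.74 against 6.58, 6.70 and 6.91 at day 6. Treated arrays lay above all DMSO arrays on each of these days. ZBP1 was 3.96-fold higher at day 3 and 6.89-fold at day 6 on this probe set (adjusted p = 2.41e-11 and 2.28e-15). The other, 242020_s_at, had passed at day 2 with 3.07-fold (2.47e-07) and reached 21.7-fold at day 6 (8.59e-18), from 3.66, 3.60 and 3.14 to 7.89, 8.02 and 7.82. Without DMSO day 6 replicate 3 the day 6 log2 differences were 2.68 and 4.28, beside 2.78 and 4.44.

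CGAS, the enzyme that senses DNA for STING1, fell. Its values were 6.82, 6.75 and 6.18 with DMSO and 5.91, 5.87 and 5.58 with EED226 at day 3. At day 6 they were 6.36, 6.40 and 5.94 against 5.14, 4.37 and 4.96. All EED226 arrays of both days lay below all DMSO arrays of the same day and below the 0 h values of 6.31, 6.15 and 6.23. CGAS fell by 0.79 ± 0.17 (SE, n = 3) at day 3 and by 1.41 ± 0.17 at day 6, that is 2.66-fold (adjusted p = 0.00111 and 5.96e-08), and the day 6 difference was -1.56 without DMSO day 6 replicate 3. Of its other probe sets, 1561708_at fell by 0.56 and 0.49, with DMSO means of 3.11 and 2.81, and 242077_x_at differed by 0.21 at day 6 without passing (adjusted p = 0.178). Their day 6 differences were -0.58 and 0.24 without that array. The calls of 1561708_at did not survive leaving out DMSO replicate 1 or EED226 replicate 1 or 3 at day 3 (adjusted p 0.0507 to 0.165), or DMSO replicate 2 or EED226 replicate 1 at day 6 (0.0692 and 0.0586).

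TLR3, the endosomal receptor for double-stranded RNA, fell by less. Its values were 6.78, 6.84 and 6.51 with DMSO and 5.91, 6.14 and 6.20 with EED226 at day 3, and 6.77, 6.66 and 5.92 against 5.75, 5.84 and 5.72 at day 6. EED226 arrays were the lower on both days, and DMSO day 6 replicate 3 lay close to them. TLR3 fell by 0.63 ± 0.16 (SE, n = 3) at day 3 and by 0.68 ± 0.16 at day 6 (adjusted p = 0.00717 and 0.00117), and without that array the day 6 difference was -0.95. A second probe set, 239587_at, fell by 0.76 ± 0.22 at day 3 (adjusted p = 0.0184). It differed by -0.32 at day 6 without passing (0.262), and by -0.79 without DMSO day 6 replicate 3 (9.31e-05). Its day 3 call was lost without DMSO replicate 1 or 3 or EED226 replicate 1 (0.0537 to 0.0639). The third, 242667_at, did not pass on any day.

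The 2 adaptors did not pass on their brightest probe sets. MAVS on its brightest probe set had values of 8.92, 9.00 and 8.80 with DMSO and 8.97, 8.98 and 9.10 with EED226 at day 6, and the groups overlapped. The difference of 0.11 ± 0.08 (SE, n = 3) did not pass (adjusted p = 0.295), and its 95% interval ran from -0.06 to 0.27. It was 0.05 without DMSO day 6 replicate 3 (adjusted p = 0.677). The other 3 probe sets of MAVS passed at day 6, higher by 0.36, 0.87 and 0.63. The last, 231829_at, read 5.67, 5.60 and 4.15 with DMSO against 5.84, 5.77 and 5.69 with EED226. Replicate 3 stood far below its group mates there, and without it the difference was 0.13 (adjusted p = 0.469). This call was also lost without EED226 day 6 replicate 1 or 2 (0.0713 and 0.0555). Without DMSO day 6 replicate 3 the other 2, 226495_at and 229741_at, differed by 0.31 and 0.58 and still passed. With the mean of its 4 probe sets, MAVS was 0.49 higher at day 6 (adjusted p = 0.000308).

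STING1 had values of 4.34, 4.25 and 3.96 with DMSO and 3.96, 4.07 and 3.92 with EED226 at day 6, near the array medians. The groups overlapped, and the difference of -0.20 ± 0.12 (SE, n = 3) did not pass (adjusted p = 0.198), with a 95% interval of -0.45 to 0.05. Without DMSO day 6 replicate 3 the difference was -0.31 (adjusted p = 0.0618), and with arrays weighted by their quality it was -0.32 and passed (0.0349). The dimmer probe set 224916_at fell by 0.54 ± 0.15 (adjusted p = 0.00347), from 3.73, 3.47 and 3.70 to 3.01, 3.21 and 3.06, all below the lowest array median, and by 0.51 without that array (0.0155). The mean of both probe sets was 0.37 lower and passed (adjusted p = 0.00131).

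**Figure D2:**
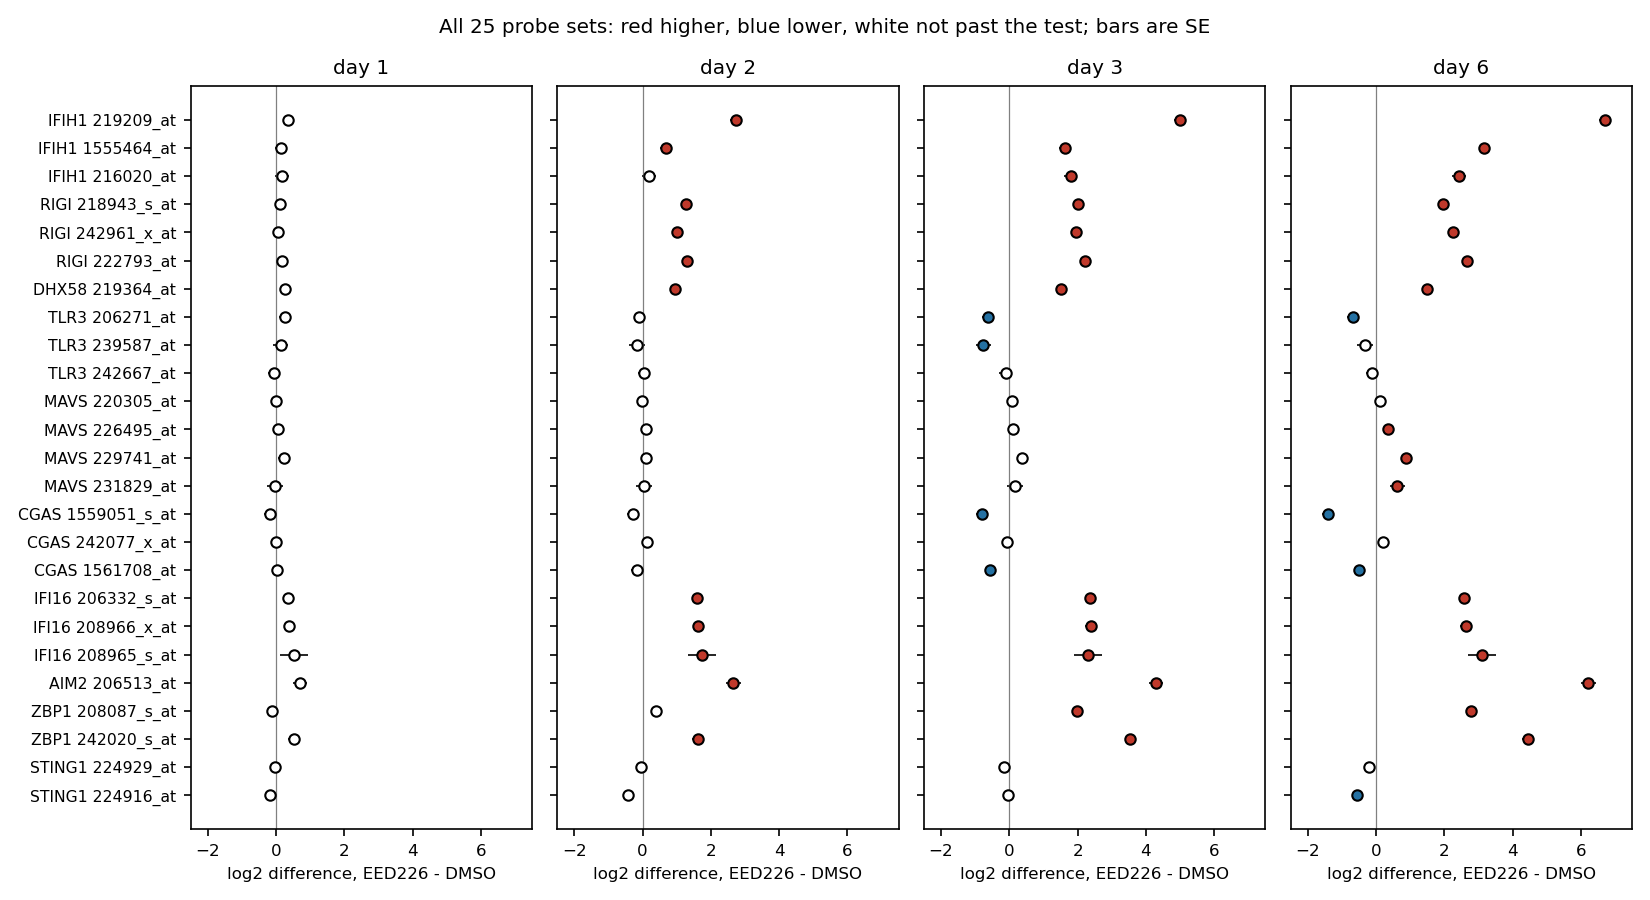
Log2 difference, EED226 minus DMSO, of each of the 25 probe sets at days 1, 2, 3 and 6, with the limma SE as a bar (hidden where smaller than the point); red passed as higher, blue as lower, white did not pass. At day 1 no point is coloured, and at day 6 the probe sets of IFIH1, RIGI, DHX58, IFI16, AIM2 and ZBP1 all lie to the right, from 1.51 to 6.70, while those of MAVS, CGAS, TLR3 and STING1 lie between -1.41 and 0.87.

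At day 6 the control probe sets for RNA integrity moved with treatment as well. The ACTB 5' minus 3' difference was -3.29 to -2.87 with DMSO and -4.14 to -3.50 with EED226, and that of GAPDH was -0.29 to -0.24 against -0.74 to -0.52. At day 3 the ACTB difference was -3.16 to -3.05 against -3.74 to -3.26. With the ACTB difference as a covariate the day 6 calls of TLR3 (-0.55, adjusted p = 0.0578), MAVS 226495_at (0.12, 0.398) and CGAS 1561708_at (-0.32, 0.258) were lost. So were the day 3 calls of CGAS 1561708_at (-0.48, 0.0597) and TLR3 239587_at (-0.58, 0.108). The other calls of EED226 against DMSO at these days held, including all those of IFIH1, RIGI, DHX58, IFI16, AIM2 and ZBP1.

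The growth of these changes was followed next. The effect of EED226, as its difference from DMSO, was tested between successive days. From day 1 to day 2 it grew for 4 of the 10 genes, against 0.349% of all genes. These were IFIH1 by 2.37 ± 0.24 (SE), AIM2 by 1.96 ± 0.30, IFI16 by 1.22 ± 0.20 and RIGI by 1.12 ± 0.13 (adjusted p = 4.54e-06, 0.000896, 0.00209 and 6.37e-05). With the mean of its probe sets IFI16 did not pass here (0.0944), while ZBP1 did (0.81, adjusted p = 0.0162). ZBP1 242020_s_at also passed, but not with only the arrays compared (1.10, 0.115) or without any 1 of several arrays. From day 2 to day 3 it grew for IFIH1, AIM2, ZBP1 and RIGI, again 4 genes, against 0.334%. From day 3 to day 6 it grew for 3, IFIH1 by 1.70 ± 0.24, AIM2 by 1.94 ± 0.30 and ZBP1 by 0.80 ± 0.20, against 12.9% of all genes. Over that last interval RIGI changed by -0.05, with a 95% interval of -0.33 to 0.23, DHX58 by -0.01 (-0.35 to 0.33) and IFI16 by 0.21 (-0.20 to 0.62), and none of the 3 passed. Of the other RIGI probe sets, 242961_x_at changed by 0.29 without passing (0.339), and 222793_at grew by 0.43 and passed (0.0465). This last call was lost without any 1 of 8 of the 12 arrays compared (adjusted p 0.0550 to 0.113), namely DMSO day 3 replicates 1 and 2, DMSO day 6 replicates 1 and 3, and replicates 1 and 2 of EED226 on both days. CGAS moved further down by 0.62 without passing (adjusted p = 0.0738). It passed when any of 4 single arrays was left out: DMSO day 3 replicate 1, DMSO day 6 replicate 3, EED226 day 3 replicate 3 or EED226 day 6 replicate 1 (0.0256 to 0.0489). The comparisons of successive days share arrays.

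Some of the same genes were also higher in DMSO than at 0 h, a comparison in which the solvent and the time in culture cannot be told apart. Against 0 h, DMSO at 8 h gave 0 calls among the 25 probe sets with limma, where 0 of all tested passed, and 1 of the 25 had an unadjusted p under 0.05. RIGI was the first to rise, from 7.64, 7.43 and 7.67 at 0 h to 8.48, 8.28 and 8.59 with DMSO at day 1, with no overlap. Its log2 difference was 0.87 ± 0.10 (SE, n = 3; adjusted p = 2.71e-05), and it was the only 1 of 10 genes to pass that day, against 0.116% of all genes. It reached 1.23, 1.44 and 1.31 at days 2, 3 and 6. DHX58 rose from 5.93, 5.93 and 5.96 at 0 h by 1.02, 1.09 and 1.00 on those days (adjusted p = 4.46e-06, 8.02e-07 and 4.57e-06). IFIH1 was higher by 0.75, 0.76 and 0.76 (0.0366, 0.0134 and 0.0232), and IFI16 by 0.61 and 0.68 at days 3 and 6 (0.0184 and 0.0128). Of the 25 probe sets, 2, 5, 7 and 7 were higher at days 1, 2, 3 and 6, against 0.0714%, 0.342%, 1.18% and 0.423% of all probe sets. In all, 3 genes rose at day 2 against 0.491% of all genes, 4 at day 3 against 1.59%, and 4 at day 6 against 0.642%. AIM2, ZBP1, CGAS, MAVS, STING1 and TLR3 did not pass at any time on their brightest probe sets. All 5 of these comparisons share the 0 h arrays, and their DMSO arrays are those that EED226 was compared with.

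**Figure D3:**
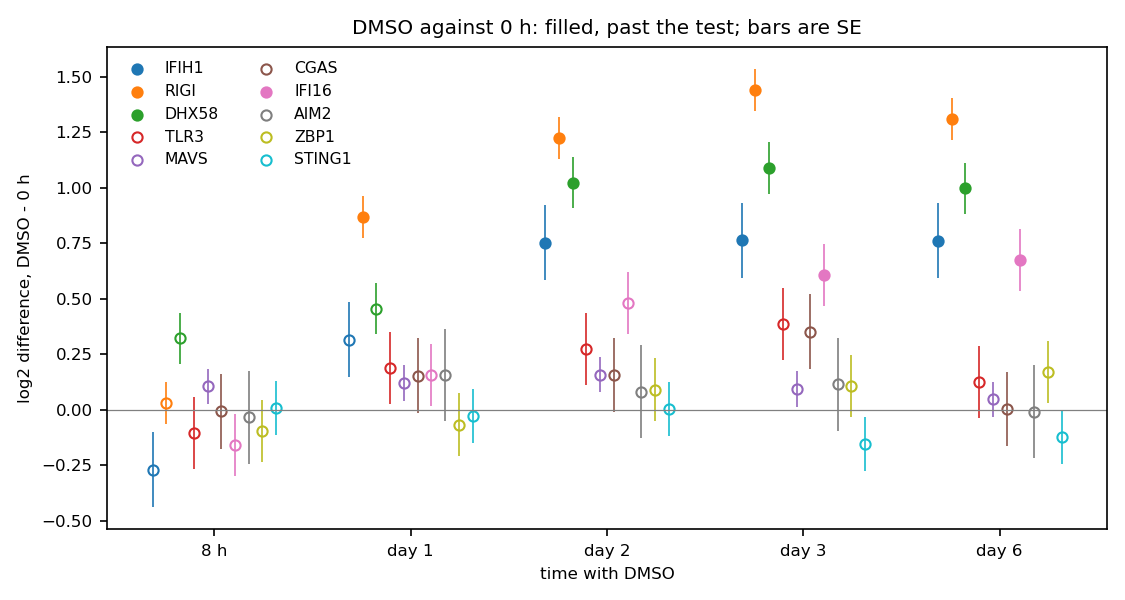
Log2 difference, DMSO minus 0 h, of the brightest probe set of each of the 10 genes at 5 times, with the limma SE as a bar; filled points passed the test, and in the key a filled point is a gene that passed at least once. RIGI is filled from day 1, DHX58 and IFIH1 from day 2 and IFI16 from day 3, with RIGI highest at 1.44 on day 3.

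The rises of IFIH1 and IFI16 against 0 h rested on few arrays and on part of their probe sets. The other 2 IFIH1 probe sets did not pass, with 0.21 and 0.05 at day 6 (adjusted p = 0.632 and 0.951). With the mean of its probe sets IFIH1 was 0.33, 0.34 and 0.34 higher at days 2, 3 and 6 and did not pass (0.325, 0.136 and 0.150). IFI16 208965_s_at did not pass, and the mean of the IFI16 probe sets was 0.70 and 0.54 higher at days 3 and 6 without passing (0.101 and 0.243). The day 2 call of IFIH1 was lost without any 1 of the 6 arrays compared, with differences of 0.66 to 0.81 (adjusted p 0.0865 to 0.243). Its day 3 call was lost without 0 h replicate 2 or DMSO replicate 1 or 2, and its day 6 call without any 0 h array or DMSO replicate 1. IFI16 lost its day 3 call without 0 h replicate 3 (0.42) or any DMSO day 3 array, and its day 6 call without 0 h replicate 3 (0.49) or DMSO replicate 1. Without DMSO day 6 replicate 3 the day 6 differences were 0.93 for IFIH1, 1.41 for RIGI, 1.13 for DHX58 and 0.81 for IFI16, and TLR3 239587_at passed with 0.66 (adjusted p = 0.0269). The calls of RIGI and DHX58 held without each array in turn. With only the arrays compared in the fit, the day 1 call of RIGI (0.138) and the day 6 call of DHX58 (0.111) were lost. So were the day 3 and day 6 calls of IFIH1 (0.0686 and 0.567) and of IFI16 (0.156 and 0.884).

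Across the 11 group means the levels of each riser had the same upper end. For IFIH1, AIM2, ZBP1 and IFI16 the EED226 means at days 2, 3 and 6 were the highest in that order, and no array of one overlapped the next. For the brightest probe sets of RIGI and DHX58 day 3 was highest, then day 6, then day 2, also without overlap. Below these, neighbours among the DMSO groups of days 2, 3 and 6 overlapped for all 6 genes. For CGAS the EED226 arrays of day 6 were lowest, then those of day 3, with no overlap, and the other 9 groups overlapped their neighbours. For TLR3 the EED226 day 6 arrays were set apart from the others. All neighbouring groups of MAVS and STING1 overlapped, and their group means spanned 0.16 and 0.33. Over the 11 group means, Pearson's r was 0.990 between IFIH1 and AIM2 and 0.991 between RIGI and DHX58, while CGAS and AIM2 had r of -0.906. These r describe 11 means that share treatment and time.

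Among 2829 other genes whose group means spanned at least 1 log2 unit, those most like each member were named by r over the 11 means. For IFIH1 they were RABGAP1L (0.998) and MYD88 (0.997), the adaptor of most Toll-like receptors. RIGI was nearest to OAS2 (0.995) and CMPK2 (0.994), and DHX58 to OAS2 and PARP12 (0.995 each). IFI16 was nearest to the interferon-induced genes MX2 (0.997) and RSAD2 (0.996). For AIM2 they were TENT5C (0.999) and CAVIN2 (0.998), for ZBP1 CSTA (0.993) and SIDT1 (0.992), for CGAS AKAP19 (0.995) and HASPIN (0.994), and for TLR3 CDK2AP2 (0.918) and ENO2 (0.913).

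Counts of listed genes at day 6 stand beside 23.1% of all genes higher and 25.5% lower. Downstream of the sensors, the gene of interferon beta itself was higher with EED226. IFNB1 read 2.66, 3.33 and 2.70 at 0 h, and 2.89, 3.16 and 3.18 with DMSO at day 6, all below the array medians. With EED226 it read 3.88, 3.44 and 3.94 at day 2, 5.43, 5.32 and 6.12 at day 3, and 6.57, 6.58 and 7.36 at day 6. The IFNB1 difference was 0.61 ± 0.19 (SE, n = 3) at day 2 and did not pass (adjusted p = 0.0709), and it rose by 2.59 at day 3 and 3.76 at day 6 (7.71e-11 and 3.57e-15). Among 15 measured interferons and cytokines of this pathway, 3 were higher at day 6 and 12 did not pass, with a median of -0.08 beside -0.11 over all genes. CXCL11, a chemokine, rose by 0.95, 1.42 and 0.85 at days 2, 3 and 6. The third, CXCL10, rose by 0.35 at day 6 and did not pass without DMSO day 6 replicate 3 (adjusted p = 0.0758). The DMSO means of CXCL11 at these days were 2.50, 3.07 and 2.80, below the lowest array median, so its sizes of change are uncertain, as are those of IFNB1.

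**Figure D4:**
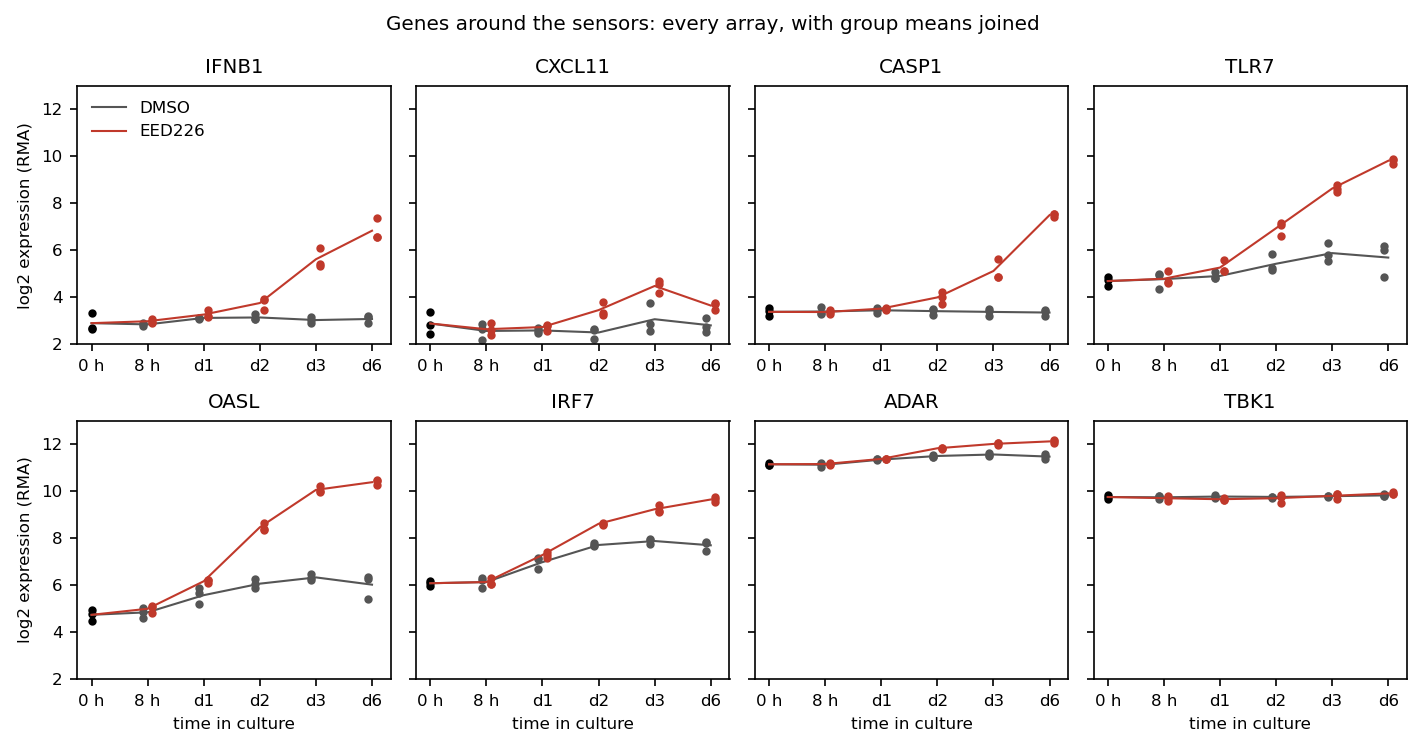
Log2 expression (RMA) on every array of 8 genes that act around the sensors, by time in culture, with DMSO in grey, EED226 in red and lines through the group means; the 6 times are evenly spaced, not to scale. The EED226 arrays of IFNB1, CASP1, TLR7 and OASL lay above those of DMSO at days 2, 3 and 6, with day 6 differences of 3.76, 4.15, 4.12 and 4.36. Those of IFNB1, TLR7 and OASL also did at day 1, without passing, while those of CASP1 overlapped. ADAR moved by 0.65 at day 6, and TBK1 lay together in both treatments.

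Of 14 measured genes of MAVS and STING1 signalling, the kinases and factors between the adaptors and interferon, 7 rose and 2 fell at day 6, against 23.1% and 25.5% of all genes. Their median was 0.35, and 0.18 without DMSO day 6 replicate 3, where IKBKG also passed as lower (-0.22). TRAF6 rose by 0.44, or 0.27 without that array. TRAF5 rose by 2.27, and IRF7, the interferon factor that is itself interferon induced, rose by 0.90, 1.35 and 1.95 at days 2, 3 and 6. The kinase IKBKE fell by 0.60 and the import receptor TOMM70 by 0.29 at day 6. TBK1 differed by 0.08 and IRF3 by -0.16 at day 6, and neither passed. Of 5 genes of the interferon receptor and ISGF3, 4 rose at day 6 with a median of 1.17, with JAK1 higher by 2.02 and IRF9 by 1.73, beside IFNAR1 (1.17) and TYK2 (0.66).

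The 5 measured effectors grouped around double-stranded RNA, the OAS family and the kinase EIF2AK2, all rose with EED226 at days 2, 3 and 6. Their medians were 1.28, 2.18 and 2.53, and 5.72%, 10.6% and 23.1% of all genes were higher on those days. OASL, which binds RIGI, rose by 4.36, OAS3 by 2.67 and EIF2AK2 by 1.56 at day 6. All 5 also rose in DMSO against 0 h at days 2, 3 and 6, against 0.491%, 1.59% and 0.642% of all genes. The medians there were 1.27, 1.39 and 1.28. Of 14 measured nucleases, editors and helicases that limit self nucleic acids, 6 rose and 4 fell at day 6. SAMHD1, which degrades nucleotides, rose by 1.39 and RNASET2 by 1.00, and RNASEH2A, a subunit of RNase H2, fell by 1.40 and SUPV3L1, a mitochondrial RNA helicase, by 0.69. The other 2 that fell were ADARB1 and APOBEC3G, and APOBEC3G did not pass without DMSO day 6 replicate 3 (-0.16, adjusted p = 0.364). ADAR, the editor that marks double-stranded RNA as self, rose by 0.33, 0.45 and 0.65 at days 2, 3 and 6. Of 12 RNA sensor cofactors, 5 rose and 5 fell at day 6, against 23.1% and 25.5% of all genes, among them DDX60 (1.52) and TRIM25 (1.07) higher and DHX9 (-0.89) and DHX33 (-0.87) lower. ZC3HAV1, LRRFIP1 and RNF135 also rose, and DHX15, PRKRA and DDX3X also fell. DHX36 passed as lower only without DMSO day 6 replicate 3 (-0.31).

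Some partners of AIM2 and ZBP1 rose as well. Of 12 measured inflammasome and HIN-200 genes 5 rose and 1 fell at day 6, with a median of -0.03. CASP1, the protease that AIM2 activates, rose by 4.15 from DMSO values of 3.41, 3.46 and 3.19 to 7.55, 7.54 and 7.41. CARD16, a CASP1 relative, rose by 5.76, but its 1 other probe set had a negative difference. The DMSO means of CASP1 and CARD16 at day 6, 3.35 and 2.37, lay below the lowest array median, which leaves the sizes of their rises uncertain. MNDA, PYCARD and GSDMD also rose, and MEFV fell by 0.36. Of the 5 measured cell death partners of ZBP1 3 rose at day 6, with a median of 0.60, namely CASP8 (1.30), the kinase RIPK3 (0.85) and MLKL (0.60), while FADD passed as lower only without DMSO day 6 replicate 3 (-0.26). Of 8 genes of the endosomal Toll-like receptor pathway, 5 rose and 2 fell with a median of 0.37. TLR7, the receptor for single-stranded RNA, rose by 4.12 and MYD88 by 1.53, while TLR8 fell by 0.33 and IRAK1 by 0.28. UNC93B1, TLR10 and CNPY3 also rose. CNPY3 (0.14) and TLR8 (-0.27) did not pass without DMSO day 6 replicate 3, and the median was then 0.23. Of 7 monocyte, macrophage and dendritic cell markers 1 rose and 2 fell at day 6, with a median of -0.27. LYZ rose by 2.28 at day 6, from 3.09, 3.40 and 3.17 to 5.70, 5.23 and 5.56, its DMSO values being below the lowest array median. ITGAM fell by 0.50 and CD163 by 0.39, the latter not passing without DMSO day 6 replicate 3. Of 6 measured T and NK cell markers 0 rose, 2 fell and 4 did not pass at day 6, with a median of -0.13. CD3D fell by 0.95 and NCAM1 by 0.38, the latter not passing without DMSO day 6 replicate 3. Their part in these lists was not tested.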

How the data were processed

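Total RNA from 33 samples was hybridised to Affymetrix arrays after TRIZOL extraction and 3' labelling, per the labels' protocols. The authors deposited log2 expression values, 1 per probe set and array. They come from RMA, per the submitters' processing notes (background correction, quantile normalization, summary over probes). The RMA version is not given in the sources used here. RMA values carry no detection call, and 3' labelling makes them depend on RNA integrity.

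Differences were tested with limma 3.58.1 (lmFit, eBayes) in R 4.3.3, fitting 11 group means to the 33 arrays (22 residual degrees of freedom), two-sided. Benjamini-Hochberg adjustment ran over 54613 probe sets, that is 54675 without 62 controls, and an adjusted p under 0.05 passed. A gene took the result of its brightest probe set. Of the probe sets tested, 41091 carried 1 gene symbol and served for genes, 1801 carried several, and 11721 were unnamed. Errors are limma SE. Alternatives were other array scalings, array weights, a trended robust fit, brighter probe sets only, the mean of probe sets, genes adjusted among themselves, only the arrays compared, an ACTB covariate, a replicate block and leaving out each array.

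The members and pathway lists were chosen with earlier results of these data known. Named genes are all 10 members, the 2 largest rises and 2 largest falls that passed at day 6 in each pathway list, IFNB1, TBK1, IKBKE, IRF3, IRF7, ADAR and EIF2AK2 always, and the 2 genes most like each member. LYZ, CD3D and the other genes of short counts were added after their values were seen. Some listed genes are not reported here.

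Same-numbered arrays of EED226 and DMSO deviated together with r over 0.1 for all 3 numbers at 8 h (r between 0.167 and 0.332), day 1 (0.175 and 0.373) and day 2 (0.141 and 0.194). They did not at day 3 (0.0126 and 0.264), day 6 (0.0683 and 0.165) or for DMSO against 0 h. Day 6 was also tested on simulated data over 54613 probe sets, drawn with independent normal noise around the 0 h means. Only 50 probe sets were changed by each amount, and no array was made to stand apart. The test recovered 32% of changes of 0.5, 86% of 1, 92% of -1 and 100% of 2, with 6 false calls. In the data 20.2% of probe sets were called higher and 20.6% lower at day 6, and DMSO replicate 3 stood apart. The simulated rates therefore do not describe the real day 6 test. Of the arrays 0 were identical. Array number limits the precision.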

Additional observations from a re-analysis of the deposited data

Results flagged for a closer look

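The effect of EED226 on a gene, its log2 difference from DMSO, differed between successive days in 11 tests of the difference itself (limma, adjusted over all probe sets). From day 1 to day 2 it grew for IFIH1 by 2.37, for RIGI by 1.12, for IFI16 by 1.22 and for AIM2 by 1.96. From day 2 to day 3 it grew for IFIH1 by 2.27, for RIGI by 0.75, for AIM2 by 1.63 and for ZBP1 by 1.59. From day 3 to day 6 it grew for IFIH1 by 1.70, for AIM2 by 1.94 and for ZBP1 by 0.80. The ACTB 5' minus 3' difference also moved with EED226 at days 3 and 6, and with it as a covariate all 11 of these tests still passed.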

How the results depend on the processing

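The counts of member genes and probe sets called for EED226 against DMSO stayed within 1.5 times under all alternatives run. Fitting only the arrays compared lowered calls of DMSO against 0 h to 0 probe sets and 0 genes at day 1, 4 and 2 at day 3, and 2 and 1 at day 6; that fit has fewer arrays. Averaging the probe sets of each gene left 2 genes at day 3 and 2 at day 6. Leaving out each array gave, in probe sets and genes, 9 to 11 and 5 at day 2, 15 to 17 and 8 at day 3, and 18 to 20 and 8 at day 6 for EED226. For DMSO against 0 h it gave 2 and 1 at day 1, 4 and 2 at day 2, 4 to 7 and 2 to 4 at day 3, and 4 to 8 and 2 to 4 at day 6. The difference between days kept 4, 4 and 3 to 4 genes. Counts of 0 at 8 h, and at day 1 for EED226, stayed 0. With a block for replicate number, 5 genes were called at day 2 and 8 at days 3 and 6. At 8 h, day 1 and day 2, where same-numbered arrays deviated together with r over 0.1 for all 3 numbers, the block changed no call of EED226 against DMSO. IFI16 208965_s_at's growth from day 1 to 2 (1.21, adjusted p = 0.00758) and from day 3 to 6 (0.80, 0.00660), IFI16's growth from day 2 to 3 (0.78, adjusted p = 0.0138) and CGAS's fall from day 3 to 6 (-0.62, 0.0429) passed with it, as did MAVS 229741_at at day 3 (0.37) and from day 3 to 6 (0.50) and CGAS 242077_x_at at day 6 (0.21), and RIGI 222793_at's growth from day 3 to 6 did not (0.0714). Of single results of members over the alternatives, by probe set or gene, 5033 had the same outcome, 117 lost a call, 45 gained one and 0 reversed. The same outcome includes results called in neither fit, so 5033 is not a count of calls kept. TLR3 lost its day 6 call with only the arrays compared (adjusted p = 0.0549). Levels below the array medians limit the sizes given for IFIH1, AIM2, ZBP1, IFNB1, CASP1, CARD16, CXCL11 and LYZ.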

Other observations

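Replicate 3 was the lowest of the 3 arrays in all 11 groups for AIM2 and for IFI16 208965_s_at. IFI16 208965_s_at read 7.73, 7.85 and 6.72 at 0 h, 8.48, 7.86 and 6.63 with DMSO at day 6, and 11.48, 10.65 and 10.13 with EED226 at day 6. Over all probe sets, 441 (0.808%) had the same replicate number lowest in every group, and for 430 of these it was replicate 3. The pattern was noticed after the values were seen.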
